A study of Mus musculus with 15 samples.

Results

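The transcripts described here encode the main components of the vascular basement membrane: the collagen IV chains Col4a1 and Col4a2, the laminin chains Lama2, Lama4, Lama5, Lamb2 and Lamc1, the nidogens Nid1 and Nid2, and the proteoglycan perlecan (Hspg2). They were chosen by name, as every probe set annotated to 1 of these 10 symbols, which gave 18 of the 45101 probe sets of the array. Values came from 15 Affymetrix mouse 430 2.0 arrays. The mice were C57BL6J males aged 10 to 12 weeks. Sorted brain cells labelled SMC/pericyte came from 5 Notch3 -/- and 4 Notch3 +/- mice, and aorta explants gave 3 Notch3 -/- and 3 Notch3 +/- arrays. Notch3 is the Notch receptor of vascular mural cells. All control mice carried 1 disrupted copy of it and no wild-type array was analysed here, so each genotype comparison sets no intact copy against 1. The labels name no cell-specific driver of the deletion. The labels leave unsaid if each aorta array is another mouse. The aorta tests can therefore reflect technical spread alone.

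A basement membrane is a thin sheet of matrix on which endothelial cells rest and in which pericytes and smooth muscle cells are embedded. Laminins, each a trimer of an alpha, a beta and a gamma chain, form the network that cells bind, collagen IV forms another, covalently linked network that bears tension, and nidogens and perlecan connect the networks. In brain vessels these proteins are made by endothelial cells, mural cells and astrocytes, and mutations of COL4A1 and COL4A2 in humans cause disease of small cerebral vessels, as mutations of NOTCH3 do.

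Notch3 separated the genotypes on every array. Its brighter probe set read 150.3 to 249.4 in Notch3 -/- and 2326 to 2805 in Notch3 +/- brain cells, and 80.1 to 146 in Notch3 -/- and 362 to 453 in Notch3 +/- aorta. Mural markers were present in the brain preparation, with the PDGF receptor Pdgfrb at 6219 to 7738 in Notch3 -/- and 5321 to 17637 in Notch3 +/- arrays. Rgs5 read 8957 to 10376 in Notch3 -/- and 11728 to 16443 in Notch3 +/-, without overlap. Of 12 pericyte and mural markers, Anpep alone averaged under 50 in brain cells of both genotypes. The brain arrays also held markers of the neighbouring cells: the summed intensity of 12 endothelial markers was 25079 to 30848 in Notch3 -/- and 19902 to 34716 in Notch3 +/- brain cells, that of 9 astrocyte markers 20327 to 33075 and 13200.2 to 34419, and that of 6 measured oligodendrocyte markers 28385 to 40922 and 24561 to 36312. Single bright probe sets weigh heavily in such sums, as the endothelial Cldn5 alone read 13182 to 16593 in Notch3 -/- brain cells. The oligodendrocyte marker Mog averaged under 50 in brain cells of both genotypes, and the astrocyte marker Sox9 in Notch3 -/-. In these bulk RNA samples fewer cells of a type and less RNA per cell cannot be told apart.

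Of the 18 probe sets, 13 passed a filter on brightness (a mean log2 value at or above the median of all probe sets in each comparison), at least 1 for each of the 10 genes. The other 5 stayed between 0.661 and 58.8 on all 15 arrays and were not tested. They were further probe sets of Lama4, Lama5, Lamc1 and Nid1. Each array's intensities had been scaled to a common target (150) before deposit, so values have no absolute unit. Levels of different probe sets cannot be set against each other, so each value below is compared with the same probe set on other arrays. Fold changes are on the log2(value + 16) scale and understate the change of dim probe sets.

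The genes of the collagen IV chains are neighbours on chromosome 8 and are read in opposite directions. In RefSeq's mouse annotation (build GRCm38.p6) the starts used here lie 21 bases apart, and windows of 250 bases before to 50 bases after each start share 78 bases. The windows are shown because both chains enter the same trimer and were measured side by side below; the shared bases are in capitals, Col4a2 at chr8:11312555-11312854 on the plus strand and Col4a1 at chr8:11312777-11313076 on the minus strand, each 5′ to 3′ in the direction of its gene.
Col4a2: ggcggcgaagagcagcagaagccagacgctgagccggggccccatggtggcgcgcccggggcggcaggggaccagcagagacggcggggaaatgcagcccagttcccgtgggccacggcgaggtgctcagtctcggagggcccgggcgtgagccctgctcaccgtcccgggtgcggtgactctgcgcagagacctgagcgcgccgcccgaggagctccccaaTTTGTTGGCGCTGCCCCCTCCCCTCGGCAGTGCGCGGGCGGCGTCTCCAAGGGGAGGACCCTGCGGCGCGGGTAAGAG
Col4a1: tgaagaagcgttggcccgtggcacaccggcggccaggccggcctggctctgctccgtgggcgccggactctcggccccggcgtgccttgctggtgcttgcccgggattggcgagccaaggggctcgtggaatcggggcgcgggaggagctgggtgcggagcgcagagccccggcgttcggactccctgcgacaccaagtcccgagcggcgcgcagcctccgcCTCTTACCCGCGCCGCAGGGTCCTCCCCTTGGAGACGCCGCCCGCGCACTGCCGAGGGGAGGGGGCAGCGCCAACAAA

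A promoter was matched for 7 members (Col4a1, Col4a2, Lama2, Lama5, Lamb2, Nid1 and Hspg2), and each was searched on both strands for the letters GTGGGAA, bound by the Notch partner RBPJ, for GGGCGG, bound by SP1, for TATAAA, and for the CArG box of serum response factor. RBPJ letters stood in 1 of the 7, Hspg2, against 6.38% of the 32851 mouse windows of this length, and SP1 letters in 6 of the 7, against 35.7% of all windows. A CArG box stood in 1 of the 7, Lama2, against 1.63% of all windows, and TATAAA in 0 of the 7, against 13.6%. The single SP1 match of Col4a1 is the same site, in the shared bases, as 1 of the 3 of Col4a2. Of the 7 windows, 5 had a GC content of 64.67% to 74%, against a median of 52.67% over all windows, and the SP1 letters are all G and C. The windows of Lama5, the member with the smallest p between genotypes, and of Hspg2 are shown with the RBPJ and SP1 letters in capitals (on either strand). The RBPJ letters of Hspg2 begin 34 bases before the start and overlap no SP1 match. Such matches describe these letters and not binding. The Lama5 window is chr2:180225810-180226109, minus strand, and the Hspg2 window chr4:137468553-137468852, plus strand, both GRCm38.p6 and 5′ to 3′.
Lama5: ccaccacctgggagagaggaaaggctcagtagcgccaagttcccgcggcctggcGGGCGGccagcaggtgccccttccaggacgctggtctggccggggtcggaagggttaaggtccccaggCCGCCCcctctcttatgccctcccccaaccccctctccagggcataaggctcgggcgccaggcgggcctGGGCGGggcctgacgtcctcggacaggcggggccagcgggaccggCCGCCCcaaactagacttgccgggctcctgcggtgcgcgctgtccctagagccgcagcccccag
Hspg2: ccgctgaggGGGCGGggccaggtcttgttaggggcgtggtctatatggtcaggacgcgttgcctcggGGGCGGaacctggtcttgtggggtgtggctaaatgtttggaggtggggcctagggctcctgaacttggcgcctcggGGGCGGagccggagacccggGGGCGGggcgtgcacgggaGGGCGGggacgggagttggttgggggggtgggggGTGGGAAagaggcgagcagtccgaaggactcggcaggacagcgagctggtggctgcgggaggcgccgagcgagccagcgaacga

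The comparison of Notch3 -/- with Notch3 +/- brain cells asked which of these transcripts depend on Notch3 in cerebral vessels. No member probe set passed: limma called 0 of 13 at 5% after Benjamini-Hochberg adjustment over 22519 probe sets, where 0.142% of all probe sets were called. At an unadjusted p under 0.05 there were 3 of 13, against 2115 of 22519 over all. The median log2 difference of the 13 was -0.14, against 0.01 over all probe sets tested, with 8 lower and 5 higher in Notch3 -/-.

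**Figure D1:**
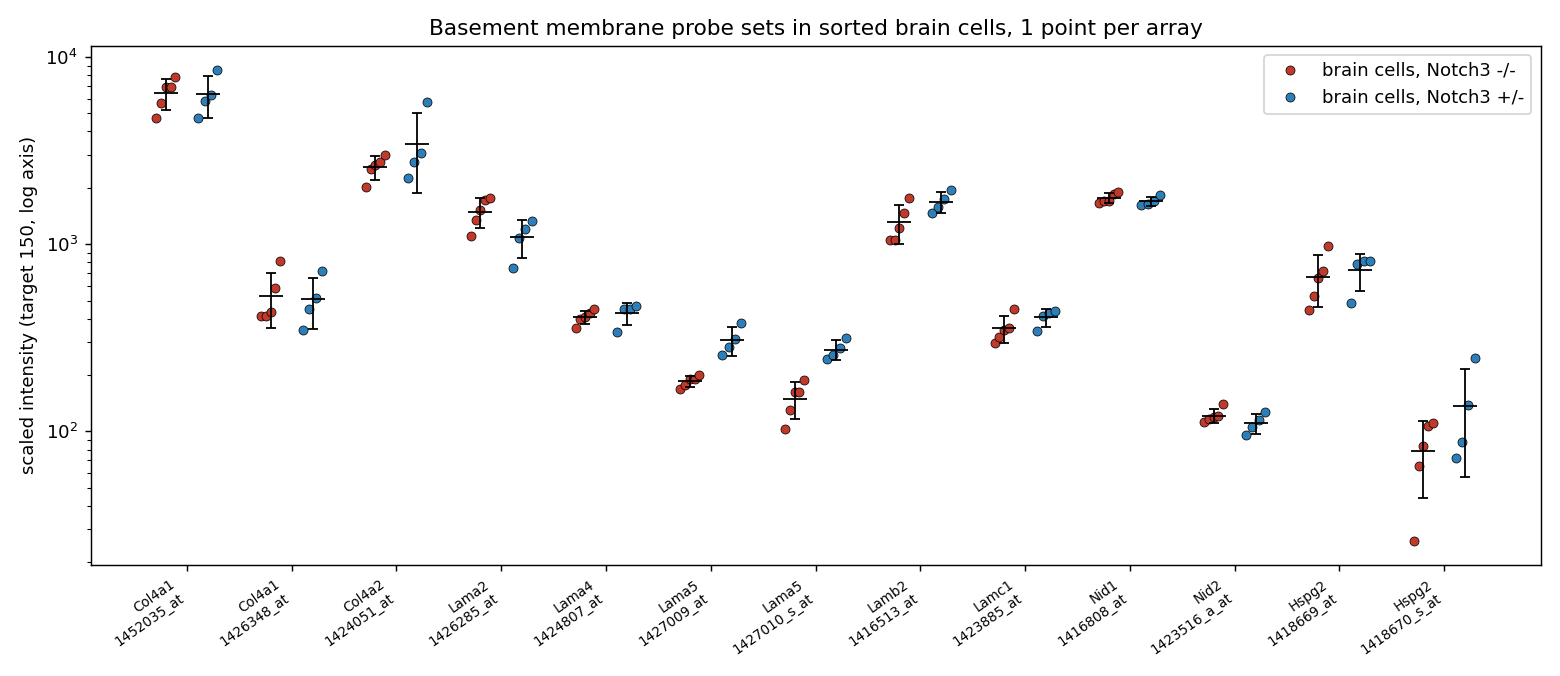
Scaled intensity (log axis) of the 13 tested probe sets in sorted brain cells, 1 point per array, with Notch3 -/- (5 arrays) left of Notch3 +/- (4 arrays) and bars for mean and SD. The genotypes lie apart only at both Lama5 probe sets, where every Notch3 -/- array is below every Notch3 +/- array.

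Lama5, the laminin alpha chain of endothelial and smooth muscle basement membranes, had the lowest log2 differences of the 13. Its brighter probe set (1427009_at) read 199.6, 191, 191, 169 and 176 in the 5 Notch3 -/- brain arrays, against 311, 281, 256 and 379.7 in the 4 Notch3 +/- arrays. The dimmer one (1427010_s_at) read 102, 130.4, 162, 189 and 162 in Notch3 -/-, against 317, 255, 280.2 and 243 in Notch3 +/-. At both probe sets each Notch3 -/- array lay below each Notch3 +/- array, an order found at 2 of 13 member probe sets and at 1.85% of all probe sets tested. Means were 185 ± 12.4 in Notch3 -/- (SD, n = 5) and 307 ± 53.4 in Notch3 +/- (n = 4) at the brighter one, and 149 ± 33.4 and 274 ± 32.6 at the dimmer one.

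The log2 difference of Lama5 was -0.67 (95% interval -1.005 to -0.33) and -0.83 (-1.22 to -0.44), and neither passed over all probe sets, with limma adjusted p = 0.168 and 0.134 (unadjusted 0.000734 and 0.00044). With all 15 arrays in the fit, which share 1 estimate of the spread, the dimmer probe set passed (limma adjusted p = 0.0215) and the brighter one fell just short (0.0505). That fit called 130 of 22519 probe sets between the brain genotypes, against 32 in the fit of the brain arrays alone. Replicates correlated at 0.976 to 0.981 in aorta and at 0.932 to 0.967 in brain. A spread shared by both can therefore understate that of the brain arrays. Both Lama5 probe sets were measured in the same RNA and are not independent evidence. Around their group means they did not vary together in the 9 brain arrays (Pearson r = -0.455, Spearman rho = -0.55; r = -0.559 without the 2 arrays farthest from the median). Over the 6 aorta arrays r was 0.659 (rho 0.486), and 0.198 over 4 arrays without the 2 farthest from the median. By the manufacturer's naming a probe set ending in _s_at can match more than 1 transcript, so the identity of the dimmer one is less certain.

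Like Lama5, smooth muscle markers read lower in Notch3 -/- than in Notch3 +/- brain arrays. The summed intensity of 10 smooth muscle markers was 14175 to 22549 in Notch3 -/- and 27754 to 46334 in Notch3 +/- brain cells, without overlap. Of 9 markers tested, 4 fell past 5% (Myh11, Tagln, Smtn and Myl9, limma adjusted p from 0.0204 to 0.0233), while Myocd averaged under 50 on this scale in both genotypes. Sums of 12 pericyte markers, which a few bright probe sets dominate, overlapped (26301 to 34900.1 in Notch3 -/-, 27545 to 57392 in Notch3 +/-), as did those of 10 fibroblast markers (9156 to 13898 and 6238 to 9397) and the endothelial sums given above, with 0 markers of these 3 lists past 5% by limma. Marker by marker, 9 of 11 tested pericyte markers had negative differences (median log2 -0.32; Rgs5 arrays did not overlap, -0.43, limma adjusted p = 0.415) and 7 of 9 fibroblast markers positive ones (median 0.66, lowest adjusted p = 0.15 for Dcn). The part of cell composition in the Lama5 values was not tested.

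**Figure D2:**
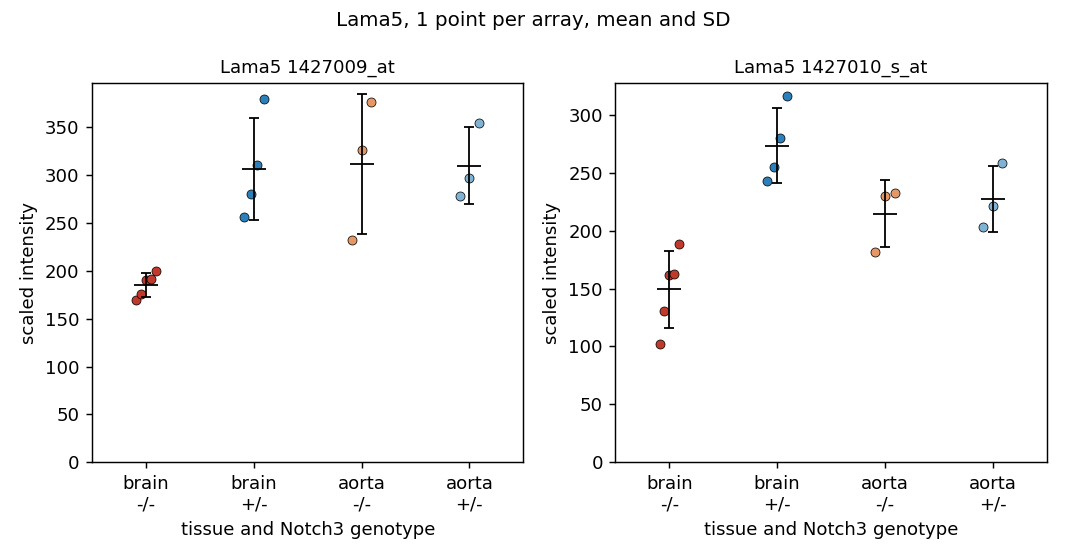
Scaled intensity of Lama5 at both tested probe sets in the 4 groups, 1 point per array with mean and SD. The 5 Notch3 -/- brain arrays read 169 to 199.6 at the brighter probe set, against 256 to 379.7 in Notch3 +/- brain arrays, while the aorta groups overlap.

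None of the other laminin chains separated the genotypes array by array. Lama2, the alpha chain of muscle and of the outer, parenchymal side of brain vessels, read 1105, 1350.2, 1729, 1759.6 and 1521 in Notch3 -/- brain cells, against 747, 1199.7, 1334 and 1081 in Notch3 +/-. The groups overlapped, although 4 of the 5 Notch3 -/- arrays lay above every Notch3 +/- array. Its log2 difference was 0.46 (95% interval 0.04 to 0.87; limma adjusted p = 0.481, unadjusted 0.0328), opposite in sign to that of Lama5. Lama4, the alpha chain found with Lama5 under endothelium, read 427, 449, 406, 398 and 357 in Notch3 -/-, against 449, 340.2, 465 and 453 in Notch3 +/-, with a log2 difference of -0.06 (-0.38 to 0.27).

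The beta and gamma chains, which pair with any of these alpha chains, gave negative differences that did not pass. Lamb2 read 1053, 1766, 1463, 1223 and 1049.8 in Notch3 -/- brain cells, against 1586, 1946, 1459 and 1748 in Notch3 +/-, a log2 difference of -0.38 (-0.76 to 0.004; limma adjusted p = 0.536). The Notch3 -/- arrays A and F stood lowest, and B lay above all but 1 Notch3 +/- array. Lamc1, the gamma chain of most vascular laminins, read 297, 321, 452, 348 and 357 in Notch3 -/- and 342, 442, 413 and 427 in Notch3 +/-, a log2 difference of -0.19 (-0.54 to 0.15; adjusted p = 0.744 by limma). The groups overlapped for both chains.

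The collagen IV chains overlapped between the genotypes. Col4a1 read 4719, 7803, 6883, 6912 and 5652 in Notch3 -/- brain cells, against 5788, 6262, 4729.9 and 8572 in Notch3 +/-, a log2 difference of 0.02 (-0.40 to 0.45). Its dimmer probe set gave 0.06 (-0.44 to 0.56). Col4a2 read 2013, 3012, 2738, 2509.8 and 2644 in Notch3 -/-, against 2248, 3059, 2741 and 5749 in Notch3 +/-, where array H stood far above the other 8 brain arrays. Its log2 difference was -0.33 (-0.83 to 0.17; limma adjusted p = 0.681), and -0.06 without H (adjusted p = 0.949).

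At the brighter Col4a1 probe set the chains varied together over the brain arrays, and at the dimmer one they did not. Taken as deviations from the genotype means, Col4a1 and Col4a2 correlated at Pearson r = 0.808 over the 9 brain arrays (Spearman rho = 0.783), and at r = 0.621 over 7 arrays without A and H, the farthest from the median. With the dimmer Col4a1 probe set (1426348_at) r was 0.052 over the 9 brain arrays and 0.192 over all 15. Over the 6 aorta arrays the brighter one gave r = 0.294 (rho 0.314). The Col4a1 probe sets correlated with each other at r = 0.398 over the 9 brain arrays. These are descriptions, and arrays share depth of labelling and cell composition. Over the 45 pairs of the 10 members at their brightest probe sets, r in the 9 brain arrays ran from -0.626 (Lama2 with Hspg2) to 0.808 (Col4a1 with Col4a2), with a median of 0.0612. Lama2 with Nid2 (0.785), Lama2 with Lamc1 (0.784) and Lamc1 with Nid2 (0.766) came close to the highest. A high r was thus not particular to the collagen IV pair.

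The linking components overlapped between the genotypes as well. Nid1, which joins laminin to collagen IV, read 1845, 1667, 1908, 1691 and 1692 in Notch3 -/- and 1707, 1825, 1629 and 1632 in Notch3 +/- brain cells, a log2 difference of 0.05 (-0.23 to 0.34). This was the narrowest interval of the 13. Nid2, its homologue, read 112, 116, 139, 119 and 120.2 in Notch3 -/- and 95.1, 105, 127 and 114 in Notch3 +/-, a difference of 0.12 (-0.22 to 0.46). Hspg2, whose heparan sulfate chains hold growth factors in the membrane, read 981, 532, 718, 444 and 656 in Notch3 -/- and 812, 788, 486 and 812 in Notch3 +/- at its brighter probe set, a difference of -0.14 (-0.62 to 0.34). Its dimmer probe set (1418670_s_at) read 25.9, 65.5, 107, 83.9 and 110.2 in Notch3 -/-, against 138, 87.5, 71.7 and 247 in Notch3 +/-, with overlap and a wide interval (-0.65, -1.41 to 0.10; limma adjusted p = 0.587).

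**Figure D3:**
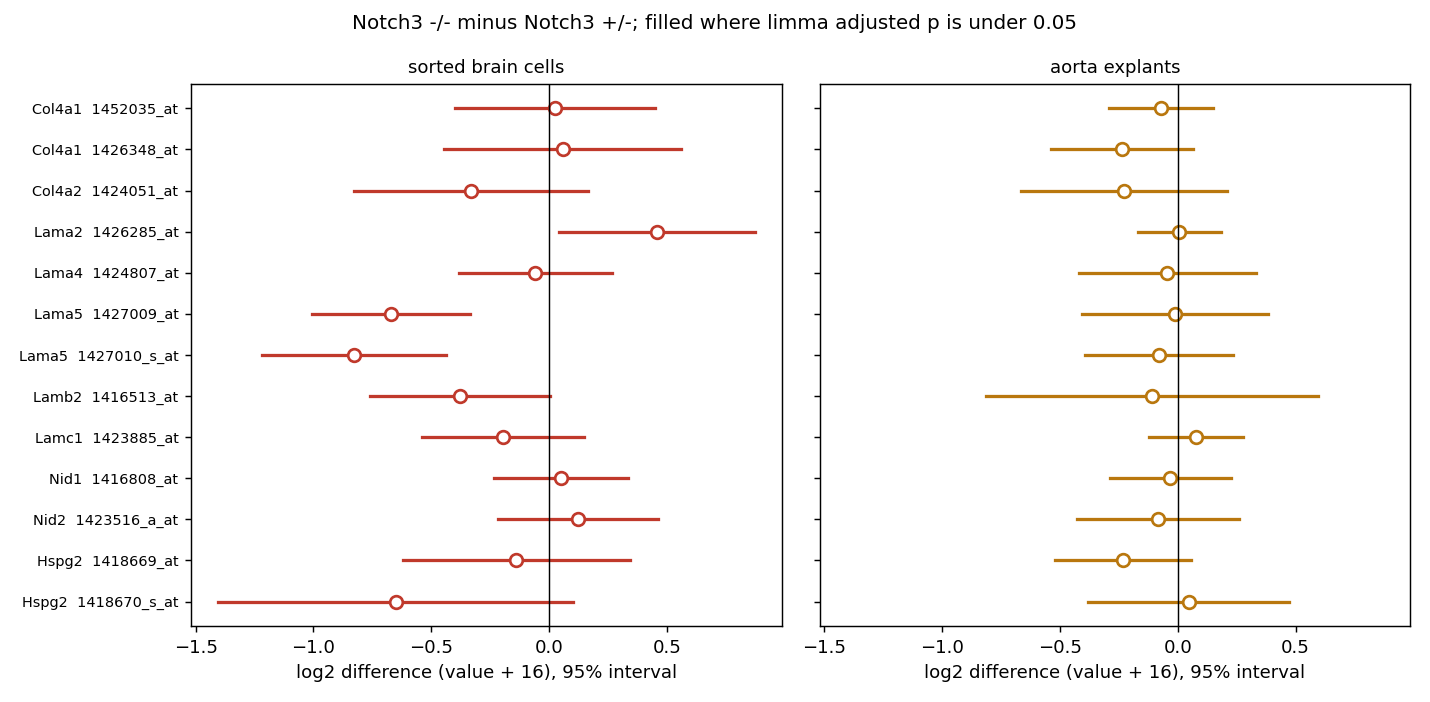
Log2 difference of Notch3 -/- minus Notch3 +/- with its 95% limma interval for the 13 tested probe sets, in sorted brain cells (left) and aorta explants (right). No symbol is filled, since no adjusted p is under 0.05; the intervals of Lama5 and of Lama2 in brain are the only ones that leave out 0.

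In aorta explants, the same genotype comparison gave no call. Limma called 0 of 13 member probe sets (0% of all 22519), with 0 of 13 at an unadjusted p under 0.05 against 980 over all, and the arrays of the genotypes overlapped at all 13, where they did not at 9.47% of all probe sets. Lama5 read 326, 377 and 232 in Notch3 -/- aorta, against 297, 355 and 278 in Notch3 +/-, and 233, 229.9 and 181 against 258, 221 and 203 at its dimmer probe set. Its log2 differences were -0.01 (-0.40 to 0.38) and -0.08 (-0.39 to 0.23). At the brighter probe set the aorta interval overlaps the brain one (-1.005 to -0.33). At the dimmer one the intervals do not overlap (-1.22 to -0.44 in brain). The test of the difference between tissues, given below, did not pass at either. Lama2 read 1323, 1219 and 1264 in Notch3 -/- and 1234, 1331 and 1223 in Notch3 +/- (0.01, -0.17 to 0.18).

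Collagen IV in aorta was likewise within the spread of the arrays. Col4a1 read 3199, 4024 and 3158 in Notch3 -/-, against 3588, 3452 and 3805 in Notch3 +/- (-0.07, -0.29 to 0.15), and Col4a2 1225, 1766 and 1287 against 1752, 2066 and 1240.3 (-0.23, -0.66 to 0.21). Lamb2 was the most variable member there, at 1438, 1779 and 926 in Notch3 -/- and 1002, 2346 and 1266 in Notch3 +/-, with an interval of -0.81 to 0.60. The remaining tested probe sets, of Col4a1 (dimmer), Lama4, Lamc1, Nid1, Nid2 and Hspg2, differed by -0.24 to 0.08. Among the untested ones, 1448469_at of Nid1 read 35.8, 37.7 and 49.5 in Notch3 -/- and 24.2, 4.77 and 27.6 in Notch3 +/- aorta, without overlap but at the low end of the scale, and 12.9 to 48.9 and 11.6 to 28.7 in brain.

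Whether the genotype difference itself differs between the tissues was tested in 1 fit over all 15 arrays. Limma called 0 of 13 member probe sets, where 0.0178% of all were called, with 2 of 13 (both of Lama5) at an unadjusted p under 0.05 against 1071 of 22519 over all. For Lama5 the brain difference minus the aorta difference was -0.66 (-1.16 to -0.16; adjusted p = 0.926) and -0.75 (-1.28 to -0.22; adjusted p = 0.839). For Lama2 it was 0.45 (-0.08 to 0.99; adjusted p = 0.997). A difference between tissues in the response to Notch3 loss was therefore not shown for any member.

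Between the tissues, 9 of 13 member probe sets, of 8 of the 10 genes, passed in Notch3 -/- arrays, against 14076 of 22519 over all. A gene counts here if any of its probe sets passed. Col4a1, Col4a2, Nid1 and Nid2 were higher in sorted brain cells than in aorta explants of the same genotype, while Lama4, Lamc1 and the _s_at probe set of Hspg2 were lower. In Notch3 -/- arrays, 4 of 13 member probe sets were called higher in brain and 5 lower, against 33.6% and 28.9% of all probe sets. In Notch3 +/- arrays, 4 of 13 were called higher and 3 lower, against 26.5% and 25.2%; without aorta array 5556 or 6166 the higher calls were 2. The 7 calls in Notch3 +/- were all made again, with the same sign, in Notch3 -/-, which rests on other arrays. Over all probe sets 11661 of 22519 were called in Notch3 +/- and 14076 in Notch3 -/-. The share of these made in both genotypes was not counted, so the 7 are not read as particular to the members. Brain cells were sorted into lysis buffer and purified on columns, whereas aorta RNA was extracted with Trizol first, per the labels, so tissue, sorting and extraction cannot be told apart. With this many calls over all probe sets, the members' shares are near the background. How many of all probe sets lie apart array by array between the tissues was not counted. Such separation, where given below, is therefore not read as particular to the members.

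**Figure D4:**
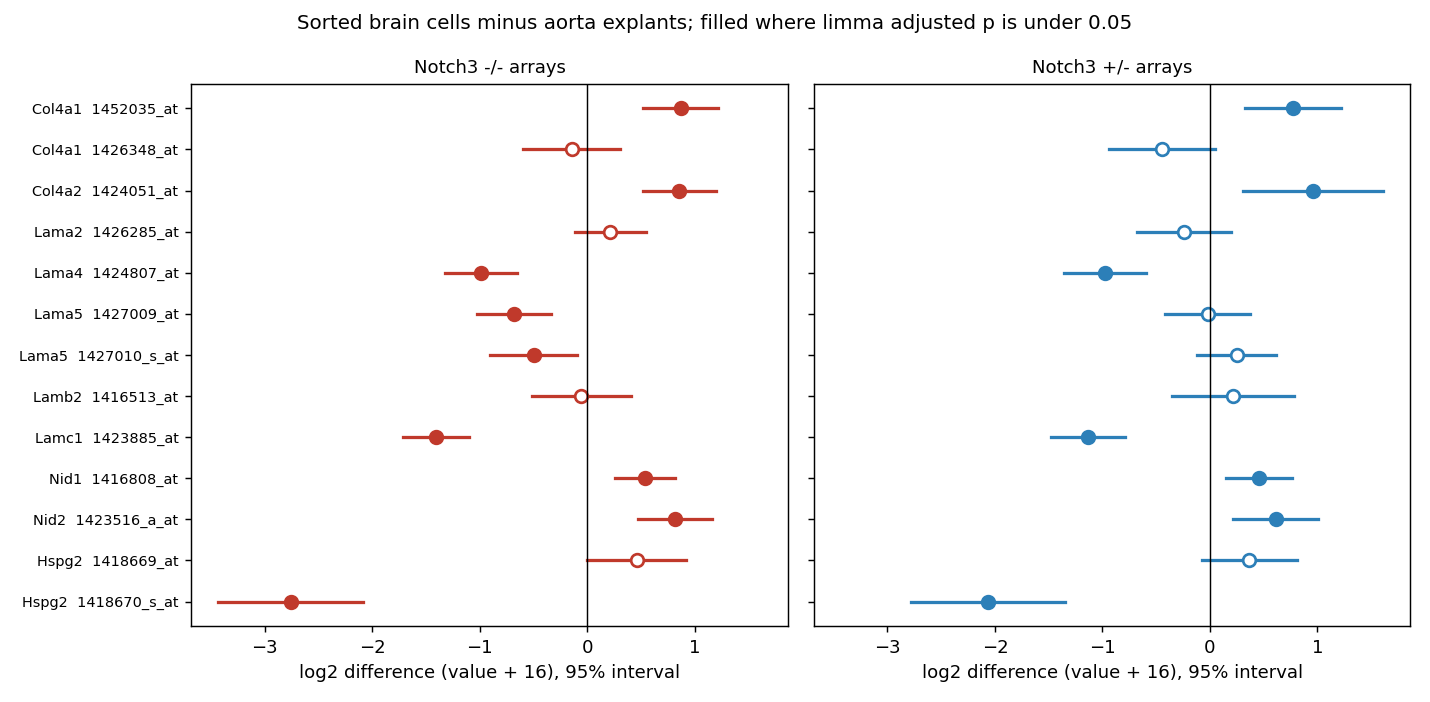
Log2 difference of sorted brain cells minus aorta explants with its 95% limma interval for the 13 tested probe sets, in Notch3 -/- (left) and Notch3 +/- arrays (right); filled symbols have an adjusted p under 0.05. Collagen IV and nidogens lie to the right, Lama4, Lamc1 and the _s_at probe set of Hspg2 to the left, and Lama5 is to the left and filled in Notch3 -/- alone.

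Both collagen IV genes were among the higher ones. Col4a1 averaged 6394 ± 1209.5 in brain cells (SD, n = 5) and 3461 ± 489 in aorta (n = 3) of Notch3 -/- mice, 1.83-fold higher (log2 0.87, limma adjusted p = 0.000387). In Notch3 +/- arrays it averaged 6338 ± 1621 in brain cells (n = 4) and 3615 ± 178 in aorta (n = 3), 1.71-fold higher (adjusted p = 0.00776 by limma). Every brain array lay above every aorta array at this probe set, an order whose share over all probe sets was not counted. At the dimmer Col4a1 probe set (1426348_at) the brain arrays were not higher, at 531 ± 172 in brain cells and 573 ± 91 in aorta of Notch3 -/- mice (log2 -0.15), and 508 ± 155 and 676 ± 74.8 in Notch3 +/- (log2 -0.44, adjusted p = 0.12 by limma). The probe sets of Col4a1 thus disagree between tissues, and the sources used here do not give the stretch of transcript each one reads.

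Col4a2 was 1.81-fold higher in brain cells than in aorta of Notch3 -/- mice (2583 ± 368 in brain cells, 1426 ± 296 in aorta; limma adjusted p = 0.000324). In Notch3 +/- arrays it was 1.95-fold higher (3449 ± 1569 in brain cells, 1686 ± 417 in aorta; limma adjusted p = 0.0189), a call lost without aorta array 6166 (0.0919).

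Nid1 averaged 1761 ± 109 in brain cells and 1217 ± 199 in aorta of Notch3 -/- mice (log2 0.54, limma adjusted p = 0.00239), and 1698 ± 92.1 and 1234 ± 32.9 in Notch3 +/- (log2 0.45, adjusted p = 0.0181). Its untested probe set 1441519_at read 27.3 to 58.8 and 22.5 to 45.4 in Notch3 -/- and +/- brain cells, above 4.97 to 11.8 and 11.7 to 14.7 in the aortas. Nid2 was 1.76-fold higher in brain cells of Notch3 -/- mice (122 ± 10.4 in brain cells, 62.3 ± 10.6 in aorta; limma adjusted p = 0.000569) and 1.53-fold higher in Notch3 +/- (111 ± 13.7 in brain cells, 66.5 ± 1.87 in aorta; adjusted p = 0.0153). In Notch3 +/-, where the tissues did not overlap for either nidogen, the call of Nid1 was lost without any 1 of the 3 aorta arrays (limma adjusted p up to 0.0801) and that of Nid2 without 5556 or 5561 (up to 0.0561).

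Among the laminins, the chains fell into separate patterns between tissues. Lamc1 averaged 355 ± 59.3 in brain cells and 958 ± 26.2 in aorta of Notch3 -/- mice, 2.65-fold lower (log2 -1.41, limma adjusted p = 1.61e-06), and 2.2-fold lower in Notch3 +/- (406 ± 44.4 in brain cells, 909.5 ± 72.1 in aorta; limma adjusted p = 0.000129). Lama4 was 1.98-fold lower in brain cells of Notch3 -/- mice (408 ± 34.7 in brain cells, 838 ± 206 in aorta; adjusted p = 8.05e-05) and 1.96-fold lower in Notch3 +/- (427 ± 58.2 in brain cells, 853 ± 112 in aorta; adjusted p = 0.000739). For both chains each brain array lay below each aorta array, an order whose share over all probe sets was not counted. Lama2 and Lamb2 did not pass in either genotype, with log2 differences of 0.21 and -0.05 in Notch3 -/- and -0.24 and 0.22 in Notch3 +/-.

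Lama5 passed as lower in brain cells than in aorta only among Notch3 -/- arrays, at 185 ± 12.4 in brain cells and 312 ± 73.3 in aorta (log2 -0.68, limma adjusted p = 0.00231). Among Notch3 +/- arrays it did not pass, at 307 ± 53.4 in brain cells and 310.1 ± 40 in aorta (log2 -0.02, -0.42 to 0.37). The dimmer probe set gave -0.50 in Notch3 -/- (adjusted p = 0.0319, and up to 0.117 under other settings) and 0.25 in Notch3 +/-. The test of the difference is the one over 15 arrays given above, which did not pass, and this comparison uses the same 5 Notch3 -/- brain arrays as the genotype comparison.

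Perlecan depended on the probe set. At 1418669_at, Hspg2 averaged 666 ± 206 in brain cells and 466.4 ± 71.5 in aorta of Notch3 -/- mice (log2 0.46, limma adjusted p = 0.0748) and 724 ± 159 and 547 ± 42.9 in Notch3 +/- (log2 0.37, adjusted p = 0.146), positive without passing. At 1418670_s_at it averaged 78.5 ± 34.6 in brain cells and 596 ± 177 in aorta of Notch3 -/- mice, 6.78-fold lower (limma adjusted p = 4.3e-06). In Notch3 +/- it was 4.18-fold lower there, at 136 ± 79.2 in brain cells and 565 ± 78.1 in aorta (adjusted p = 0.000334). The direction of Hspg2 between tissues is thus not settled by these data.

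**Figure D5:**
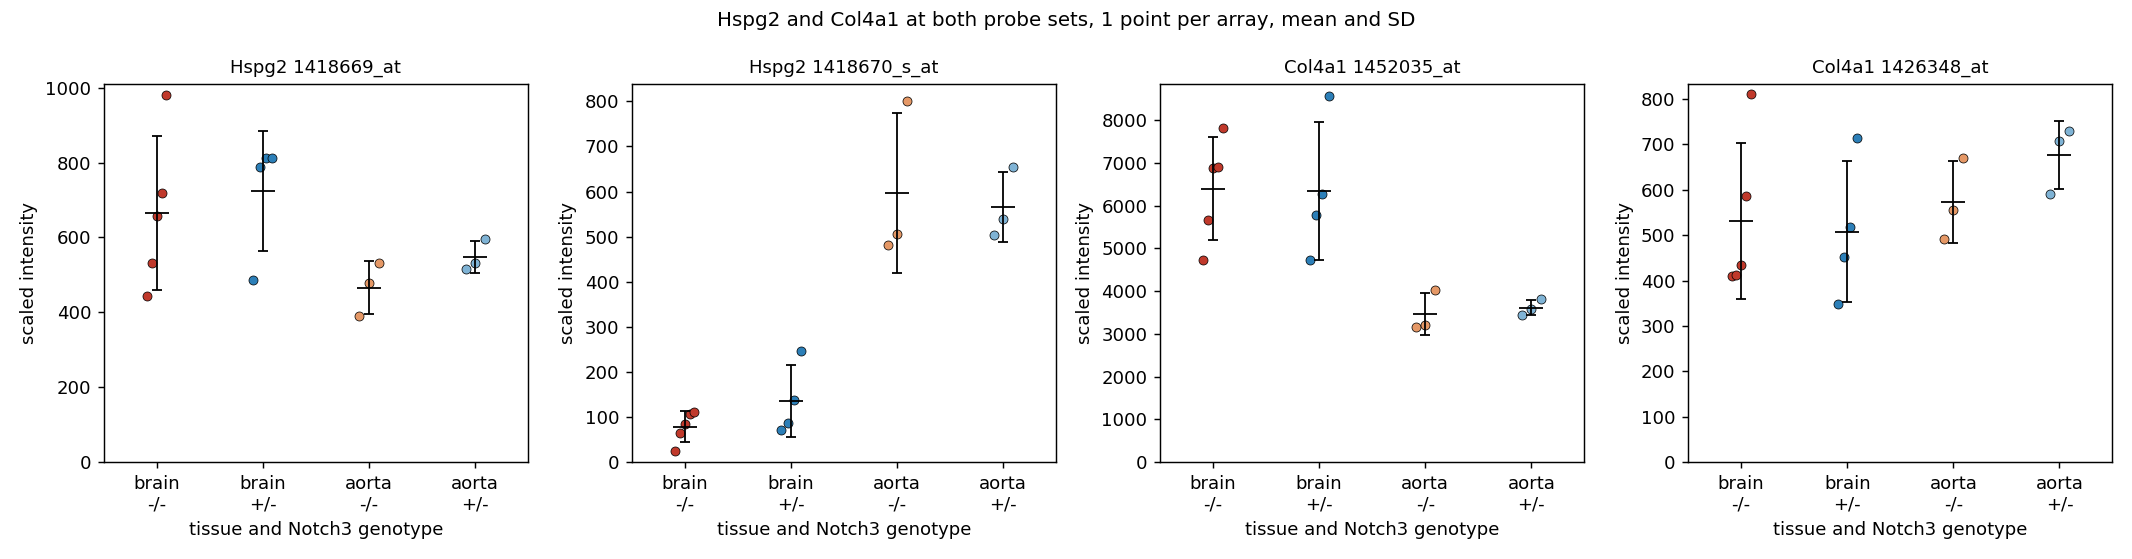
Scaled intensity of Hspg2 and Col4a1 at both of their tested probe sets in the 4 groups, 1 point per array with mean and SD. The _s_at probe set of Hspg2 and the brighter one of Col4a1 separate brain cells from aorta, in opposite directions, and the other probe set of each gene does not.

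Marker levels that differ with tissue stand beside these values. Summed endothelial markers were 25079 to 30848 in Notch3 -/- brain cells, against 2344 to 2639 in Notch3 -/- aorta, with 11 of 12 markers called higher in brain by limma and Pecam1 lower (58.1 to 107 in brain cells, 317 to 435 in aorta). Flt1 and Tie1 averaged under 50 in Notch3 -/- aorta. Summed smooth muscle markers were 14175 to 22549 in Notch3 -/- brain cells and 48318 to 54516 in Notch3 -/- aorta, and fibroblast markers 9156 to 13898 and 48111 to 51336, where all 10 were called lower in brain. Summed astrocyte markers were 20327 to 33075 in Notch3 -/- brain cells and 2316 to 2816 in Notch3 -/- aorta, and all 8 tested were called higher in brain. Oligodendrocyte markers summed to 28385 to 40922 and 147 to 190, with all 5 tested called higher in brain. The 4 measured adipocyte markers summed to 78.5 to 119.5 and 3107 to 5647, with Adipoq, Cidec and Fabp4 under 50 on average in brain cells. Their part in the values of the members was not tested.

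Other components of basement membranes, listed by function with earlier results of these data known, showed no call between genotypes. Of 22 other chains and components, 18 were tested in brain and limma called 0 (median log2 -0.05, against 0.01 over all probe sets). Tinagl1, a laminin-binding matrix protein, had the smallest p, at 319 ± 69 in Notch3 -/- (n = 5) and 645 ± 223 in Notch3 +/- brain cells (n = 4) without overlap (log2 -0.95, limma adjusted p = 0.171). The laminin chain Lamb1 (0.57) and the collagens Col4a6 (-0.68) and Col18a1 (-0.35) followed. Of 17 receptors, 15 were tested in brain with 0 called (median 0.02). Itga7, the integrin alpha chain of muscle that binds laminin, had the smallest p there, at 211 ± 54.5 in Notch3 -/- and 353 ± 62.9 in Notch3 +/- (log2 -0.71, adjusted p = 0.271). In aorta and for the difference between tissues, limma called 0 of both lists.

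Between tissues most of the other components were called lower in brain cells. In Notch3 -/- arrays 5 of 19 other components were called higher and 14 lower (median log2 -1.58, against 0.11 over all probe sets, of which 33.6% were called higher and 28.9% lower), and in Notch3 +/- arrays 4 of 19 higher and 13 lower (median -1.54, against 0.07 over all, with 26.5% called higher and 25.2% lower). The heparan sulfate proteoglycan agrin (Agrn) was 6.21-fold higher in Notch3 -/- brain cells (4233 ± 269 in brain cells, 672 ± 110.1 in aorta; limma adjusted p = 1.4e-09). The matricellular proteins Smoc1 and Smoc2 and the integrin ligand nephronectin (Npnt) were lower, with log2 differences of -4.62, -4.59 and -4.06 (limma adjusted p at most 2.86e-09). Among receptors 4 of 15 were higher and 8 lower in Notch3 -/-, and 4 of 16 higher and 7 lower in Notch3 +/-, with medians of -0.62 and -0.31. Their higher calls are near the share over all probe sets just given, while their lower calls exceed it (28.9% in Notch3 -/- and 25.2% in Notch3 +/-). Itga6, the laminin-binding integrin chain of endothelium and other cells, averaged 1233 ± 239.7 in brain cells and 60.3 ± 25.5 in aorta of Notch3 -/- mice (log2 4.07, limma adjusted p = 2e-09).

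The genes whose array-to-array pattern was most like that of the brighter Col4a1 probe set were not basement membrane genes. Over deviations from the 4 group means in 15 arrays, and among 11980 genes, the highest Pearson r with Col4a1 belonged to Wtip (0.955), Lhpp (0.947), Urb1 (0.943), Hacd1 (0.926) and Plin3 (0.894), and Col4a2 was number 233 (0.704). For Lama5 they were Sorcs2 (0.905), Jmjd8 (0.883), Grb2 (0.867), Asb2 (0.86) and Gps2 (0.858), and the nearest member was Lamb2 at number 251 (0.627). The points share labelling depth and cell composition, and the ranks are descriptions. They hold for the brightest probe set of each gene. Over the 15 arrays the dimmer tested probe set correlated with the brighter one at r = 0.412 for Col4a1 and -0.0181 for Lama5.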

How the data were processed

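Each deposited value is the intensity of a probe set on a linear scale. The authors hybridised 15 µg of cRNA, scaled to a target of 150 and analysed in Rosetta Resolver, as the design text states for the brain arrays; the 2% trimmed mean of deposited intensity was 150 on all 15 arrays. The sources used here give no summarisation algorithm, background correction, detection call or genome build. Symbols came from the platform annotation and were updated through Entrez identifiers (34754 of 34958 probe sets with 1 symbol matched; 932 had several and 9211 none).

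Groups came from sample titles. Values were taken as log2(value + 16), 64 control probe sets were dropped, and probe sets at or above the median mean were tested (22519 in each comparison) with limma 3.58.1 under R 4.3.3. The moderated, two-sided tests (eBayes, trend on mean intensity) were adjusted by Benjamini-Hochberg and read at 5%. The fits were also run on simulated data with known changes, independent normal noise and a single spread per probe set. Such data cannot show how the tests hold where groups differ in spread or arrays are not separate mice. A gene is led by its brightest probe set. Genes that are no members come from fixed lists, up to 4 per list and comparison by smallest p (not all are given), and the 5 most correlated with Col4a1 or Lama5; marker genes are named from the marker lists. Members and lists were chosen with earlier results of these data known. Replicates correlated at r between 0.932 and 0.981. No replicate name recurs in another group, and no arrays were paired. The number of arrays limits the precision. Alternatives were 2 other pseudocounts, no filter, quantile normalization, no trend, array weights, all 15 arrays in the fit, the aorta name series as a block and leaving out each array.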

Additional observations from a re-analysis of the deposited data

Results flagged for a closer look

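Among 26 sets of 4 or 5 brain arrays (13 probe sets in each genotype), 3 held an array whose gap to the next, relative to the range, exceeded Dixon's 95% critical value, where chance gives about 1 in 20. Hspg2 at its brighter probe set read 486.3 in Notch3 +/- array I, against 788 to 812 in the other 3; without I its brain minus aorta difference in Notch3 +/- passed (0.54, limma adjusted p = 0.0119). Lama4 read 340.2 in Notch3 +/- array G, against 449 to 465 in the other 3, and without G its difference between the brain genotypes was -0.16. Nid2 read 139.4 in Notch3 -/- array C, against 112 to 120.2 in the other 4, and without C its difference between the brain genotypes was 0.08.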

How the results depend on the processing

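No log2 difference that passed changed sign under any alternative run. Between brain genotypes the count of member probe sets past 5% was 0 under every alternative but all 15 arrays in the fit. There 130 of 22519 probe sets were called over all, and 1 of the members (Lama5, 1427010_s_at). Its log2 difference stayed between -0.91 and -0.67 over 16 alternatives, and that of the brighter Lama5 probe set between -0.75 and -0.56. In aorta and for the difference between tissues the count was 0 under every alternative run, the block of the aorta names included. Between tissues the total counts stayed between 8 and 10 in Notch3 -/- and between 5 and 9 in Notch3 +/-, where the higher calls fell to 2 without aorta array 5556 or 6166, against 4 reported. Of 195 single values in Notch3 -/-, 6 lost their call, all of the dimmer Lama5 probe set, and 4 gained one. Of 182 in Notch3 +/-, 6 lost it (Col4a2, Nid1, Nid2) and 5 gained it: the dimmer Col4a1 probe set and the brighter Hspg2 one with array weights (0.045 and 0.0497 by limma) or without brain array E or I, and Lamb2 without aorta array 5561 (0.0488). Values that passed under neither setting changed sign in 8 of 208 cases between brain genotypes, 18 of 182 in aorta, 16 of 273 for the difference between tissues, 4 of 195 in Notch3 -/- and 5 of 182 in Notch3 +/-. The causes were not tested. No detection calls were used, so for the 5 dimmest probe sets signal over background is unknown.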

Other observations

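Genes that assemble and process collagen were mostly lower in brain cells than in aorta, and none was called between genotypes by limma. Of 15 measured, 0 were called between brain genotypes, with a median log2 of -0.10 and the chaperone of collagen folding Serpinh1 at the smallest p (439 ± 85.4 in Notch3 -/-, 657 ± 106 in Notch3 +/-; log2 -0.57, limma adjusted p = 0.324). Between tissues 12 of 15 were called lower and 1 higher in each genotype (median log2 -1.35 in Notch3 -/- and -1.09 in Notch3 +/-), where 28.9% and 25.2% of all probe sets were called lower. The crosslinking enzymes Lox and Loxl1 averaged 331 ± 118 and 121 ± 27 in Notch3 -/- brain cells, against 2441 ± 96.3 and 2716 ± 232 in Notch3 -/- aorta, while Col4a1 at its brighter probe set and Col4a2 were higher in brain cells.

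Of 10 genes of matrix turnover, 0 were called between brain genotypes by limma. Timp4, an inhibitor of metalloproteinases, was 14.3-fold higher in brain cells than in aorta of Notch3 -/- mice (1640.0 ± 683 in brain cells, 93.4 ± 14 in aorta; limma adjusted p = 2.44e-08). In Notch3 +/- mice it was 5.88-fold higher (1337 ± 532 in brain cells, 197 ± 6.57 in aorta; adjusted p = 5.96e-05). Timp4 in aorta did not overlap between the genotypes (log2 -0.97, limma adjusted p = 0.279), and the test of the difference of differences did not pass (1.28, adjusted p = 0.866). The gelatinase Mmp2, which cleaves collagen IV, was 5.76-fold lower in Notch3 -/- mice (319 ± 146 in brain cells, 1782 ± 20.4 in aorta; adjusted p = 1.98e-06). Of the 10, 2 were called higher and 6 lower in Notch3 -/-, and 1 higher and 4 lower in Notch3 +/-. Over all probe sets 33.6% were called higher and 28.9% lower in Notch3 -/-, and 26.5% and 25.2% in Notch3 +/-.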
